A study of Mus musculus with 40 samples.

Results

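Microglia depletion was examined in the retinas of 10 control mice, 5 on control food (mice 1 to 5) and 5 on a diet with PLX5622 (mice 11 to 15), out of 40 libraries of retina and choroid in the series. The retinas were chosen by their sample titles, which give the tissue, the absence of Cre and the diet, and no measured value entered the choice. All 10 mice were Tgfbr2 fl/fl littermates without the Cdh5-CreERT2 transgene on a C57BL/6J background, of both sexes, and they had received the tamoxifen eye drops that were given to the Cre carriers, at 6 to 7 weeks of age and on 5 days. Every mouse was treated with the laser, 6 burns per eye, and the retina was taken 3 days later, so there is no eye without laser injury among them and each difference between the diets is a difference within lasered retina. PLX5622 was fed from the first tamoxifen drop to the end of the experiment. The Tgfbr2ΔEC retinas, in which the same drops deleted Tgfbr2 in cells that express the endothelial Cdh5 promoter, are other mice (5 per diet) and are used below to see whether the diet differences recur.

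Microglia are the resident macrophages of the retina. Their processes lie in the plexiform layers, where they survey synapses and clear debris, and after injury they retract these processes, move towards the lesion and take up dead cells. Their survival needs continuous signalling through the CSF1 receptor, Csf1r, which binds CSF1 and IL34, and PLX5622 is a small molecule that blocks the kinase of this receptor. Border macrophages around vessels and monocytes that enter from the blood carry the same receptor to different degrees, so the inhibitor does not act on microglia alone.

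The values are normalized counts per gene, that is, estimated reads scaled by the authors for library depth. A library held about 20960636 to 30544820 reads, and 1 read was worth about 0.742 to 1.124 normalized counts, as estimated from the steps between low values. Numbers of reads given below are these estimates rounded to whole reads, so they and the intervals and bounds drawn from them are approximate. Libraries on the same diet correlated across genes with r between 0.9477 and 0.9718 and libraries on different diets with r between 0.9289 and 0.9648. PLX mouse 11 stood apart. Over its 479 protein-coding genes with fewer than 2000 exonic bases and a mean of at least 100, the median deviation from the gene's mean over the 20 retinas was 0.75 on the log2 scale, and over 4541 such genes longer than 8000 bases it was -0.29, while the next of the 10 control retinas, control-food mice 2 and 3, had 0.37 and 0.36 for the short genes, and Tgfbr2ΔEC mouse 7 had 0.42. Control-food mice 1 and 5 had the highest levels of several monocyte and antigen-presentation genes. The calls of Lyz2, Csf1r, Mrc1 and Il1a, in which mouse 1 or 5 held the highest value, held without either mouse (adjusted p up to 0.00038, 2.24e-05, 0.00454 and 0.00391).

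With PLX5622 the RNA of microglial and other myeloid genes fell in control retina. Of 23243 genes tested, 169 were lower (0.727%) and 2 were higher (0.0086%), together 0.736%, at an adjusted p of 0.05 or less in limma, Benjamini-Hochberg adjusted. At an unadjusted p under 0.05, 863 genes were lower and 472 higher. The median log2 difference over all genes tested, PLX5622 minus control food, was 0.0048, and 48.9% of the genes had a lower mean with PLX5622. Of the 169 lowered genes, 72 are on the myeloid lists described below, 88 are on none of the lists, and 165 are protein-coding, and in 152 the values of the PLX mice lay wholly below those of the control-food mice, which was so for 269 of all genes tested (1.16%). No gene with a mean of 1000 or more over the control retinas was called among 5326 tested, although the 95% interval of such a gene reached only 0.28 log2 units to each side in the median. Differences in RNA of a whole retina cannot tell fewer cells of a type from less RNA per cell.

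**Figure D1:**
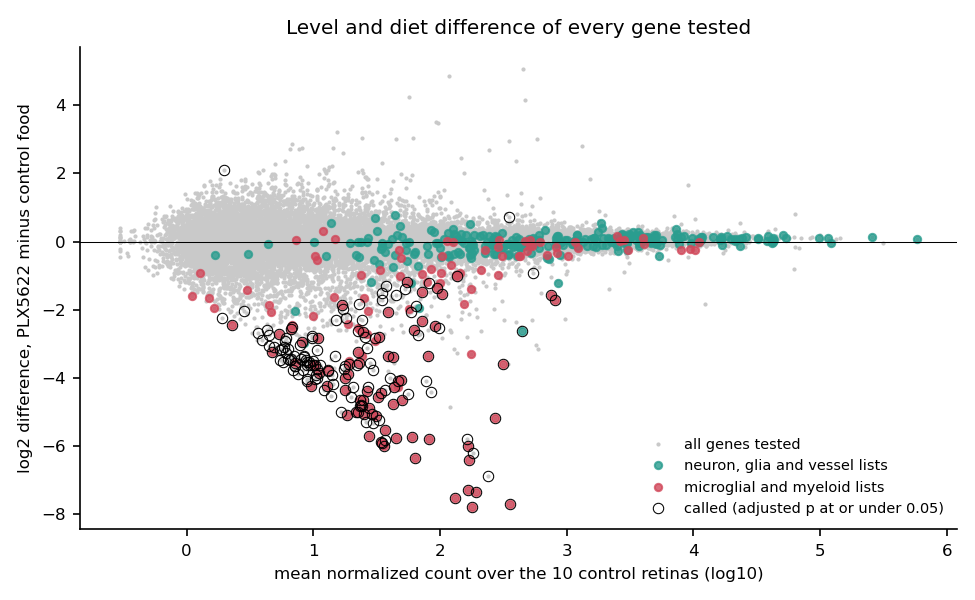
Each point is 1 of the 23243 genes tested, placed by its mean normalized count over the 10 control retinas (x axis, log10) and its log2 difference between PLX5622 and control food (y axis). The 169 called genes below 0 are mostly of low to middle level and many belong to the microglial and myeloid lists, while the neuron, glia and vessel lists lie along 0 up to the most abundant transcripts.

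The amount of RNA left is given as the mean of the 5 PLX mice in percent of the mean of the 5 control-food mice. Over the 169 lowered genes the median was 4.107% left, with genes at 0 placed at the highest value that 3 reads over the 5 PLX libraries allow (a mean of 0.586 normalized counts). Less than 1% was left of 19 genes, between 1% and 10% of 105, between 10% and 50% of 44, and more than 50% of 1, the plasma selenium carrier Selenop with 51.0%. No read was seen in any PLX mouse for 32 genes. These limits and the intervals on percent left cover counting error only.

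Tmem119, a membrane protein found on resident microglia and used to tell them from blood-derived macrophages (chr5:113931781-113938577, GRCm39), had 81.7, 73.75, 53.15, 61.62 and 68.03 normalized counts in control-food mice 1 to 5. It was at 0 in PLX mice 11, 12, 13 and 15 and at 1.07, a single read, in mouse 14. The groups were far apart, with 0.317% left (95% counting interval 0.0073% to 1.61%) and a log2 difference of -5.88 ± 0.31 (SE; limma adjusted p = 4.2e-10; exact permutation p = 0.0079, the smallest that 5 mice against 5 allow).

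C1qc, 1 of the 3 genes for the chains of C1q, the first component of the classical complement pathway (chr4:136616466-136620376), had 378.8, 357.3, 307.9, 198.5 and 527.4 normalized counts in the control-food mice. It had 3.35 in PLX mouse 11, 0.878 in mouse 13 and 0 in the other 3. Every PLX mouse lay far below every control-food mouse, with 0.239% left (0.062% without mouse 11) and a log2 difference of -7.80 ± 0.43 (SE; limma adjusted p = 4.31e-10), the most negative of the called genes. The neighbouring genes for the other chains, C1qb (chr4:136606009-136613511) and C1qa (chr4:136623223-136626161), had 0.425% and 0.497% left from means of 332.1 and 385.0 normalized counts (0.281% and 0.194% without PLX mouse 11).

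P2ry12, the ADP receptor that steers microglial processes towards injured cells (chr3:59123682-59170429), kept more. It had 167.3, 154.0, 125.1, 155.1 and 134.2 normalized counts with control food and 12.97, 17.45, 9.03, 20.05 and 10.57 with PLX5622. The groups did not overlap, but 9.53% was left (log2 difference -3.35 ± 0.28 SE, limma adjusted p = 1.94e-07). P2ry12 lies within Med12l, which is transcribed from the opposite strand and had means of 632.5 and 716.6 normalized counts on the 2 diets (limma adjusted p = 1.0). Whether the authors' estimation used the strand of the reads is not given in the sources used here.

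The promoters of these genes are shown because they lost RNA together. The RefSeq promoter table, made on GRCm38.p6, holds a window from 250 bases before to 50 bases after the start for 121 of the 169 lowered genes (151 promoters), among them C1qc, C1qb and P2ry12, whose sequences matched GRCm39 at chr4:136620176-136620475, chr4:136613462-136613761 and chr3:59170357-59170656, all on the minus strand. Capitals mark the letters GAGGAA, read on either strand, which are the core of the motif bound by PU.1, the transcription factor encoded by Spi1 that macrophages need.
C1qc: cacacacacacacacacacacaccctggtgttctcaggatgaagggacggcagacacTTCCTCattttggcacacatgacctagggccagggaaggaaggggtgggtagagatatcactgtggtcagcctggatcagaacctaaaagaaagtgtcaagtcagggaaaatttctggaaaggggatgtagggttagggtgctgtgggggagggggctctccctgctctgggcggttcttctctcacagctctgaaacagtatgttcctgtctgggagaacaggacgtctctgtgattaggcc
C1qb: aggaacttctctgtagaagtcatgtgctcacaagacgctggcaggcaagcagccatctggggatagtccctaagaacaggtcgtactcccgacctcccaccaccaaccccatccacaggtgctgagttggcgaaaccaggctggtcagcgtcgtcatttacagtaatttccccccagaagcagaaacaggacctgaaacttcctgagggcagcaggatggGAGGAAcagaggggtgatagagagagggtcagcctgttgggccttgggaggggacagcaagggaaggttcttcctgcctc
P2ry12: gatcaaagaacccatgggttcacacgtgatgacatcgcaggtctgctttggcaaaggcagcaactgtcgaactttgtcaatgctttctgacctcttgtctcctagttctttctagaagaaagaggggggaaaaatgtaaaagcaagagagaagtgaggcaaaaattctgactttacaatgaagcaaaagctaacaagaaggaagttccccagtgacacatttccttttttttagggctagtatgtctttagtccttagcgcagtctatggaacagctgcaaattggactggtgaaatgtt
Positions are counted from the start that RefSeq gives. For C1qc, P2ry12 and Cx3cr1 that start lies inside the gene as annotated on GRCm39, downstream of its annotated start. The C1qc window holds the letters once, on the reverse strand 193 bases before that start, and the C1qb window once, on the forward strand 30 bases before the start. P2ry12 has no match in this window, nor has Cx3cr1, whose window (chr9:119897313-119897612, minus strand) is not printed. Among the 32851 promoters that RefSeq gives, 28.3% hold GAGGAA on either strand, and among the 151 promoters of lowered genes 55.0% do. The longer composite motif of PU.1 with IRF8, searched on both strands and able to overlap the shorter one, was in none of these 4 windows, in 2.72% of all promoters and in 5.3% of those of lowered genes. These are matches of letters, and no binding was measured.

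Of 29 genes of a list for resting (homeostatic) microglia, 20 were lower and the median log2 difference was -3.59. The median percent left was 7.30%, and 4.5% without PLX mouse 14. The fractalkine receptor Cx3cr1, through which microglia receive a signal from neurons, fell from 190.9 to 375.0 normalized counts to 0 in 3 PLX mice and 1.14 and 1.23 in the other two, which is 0.182% left (counting interval 0.0181% to 0.54%). The lysosomal protease Ctss had 707.6 ± 200.5 normalized counts (SD, n = 5) with control food and 3.23 ± 2.78 with PLX5622. The adaptor Tyrobp, the lipid receptor Trem2 that signals through it and the nucleotide receptor P2ry13 kept 0.481%, 0.827% and 1.199%, each from 3 reads in the PLX group, with counting intervals of 0.0957% to 1.356%, 0.166% to 2.35% and 0.272% to 3.85%. P2ry13 had 0.507% without PLX mouse 15. The loss was present in each of the 5 PLX mice. The median over the list of a mouse's level, in percent of the control-food mean, was 5.31, 6.98, 2.06, 8.41 and 3.97% in mice 11 to 15, against 71.0 to 134% in the control-food mice.

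Other genes of the same list kept far more. Csf1r itself, the target of the drug, had 671.5, 452.2, 416.4, 473.7 and 867.2 normalized counts with control food and 49.27, 61.21, 16.74, 29.57 and 119.7 with PLX5622. The groups did not overlap and 9.60% was left (log2 difference -3.59 ± 0.36 SE, limma adjusted p = 2.25e-06). The highest PLX value, in mouse 15, was more than the other 4 but far below every control-food mouse.

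Sall1, a transcription factor that holds microglial identity and is also present in other cells of the eye, had 23.4% left (63.21 ± 29.88 to 14.82 ± 8.06, SD, n = 5; limma adjusted p = 0.00432, and 0.0526 when the 10 control retinas were fitted alone).

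Of the 9 list members that were not called, the cysteine protease inhibitor Cst3 had the highest level in the retina, 5989 normalized counts per kilobase of exons with control food against 239.1 for C1qa and 133.4 for Ctss. It had 102.8% of the control-food mean with PLX5622 (95% interval of the log2 difference -0.43 to 0.42, limma adjusted p = 1.0). Its highest value, 19420 normalized counts, came from PLX mouse 11, and the other 4 PLX mice had 8224 to 9530. Without mouse 11 the log2 difference was -0.23 (limma adjusted p = 0.688).

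**Figure D2:**
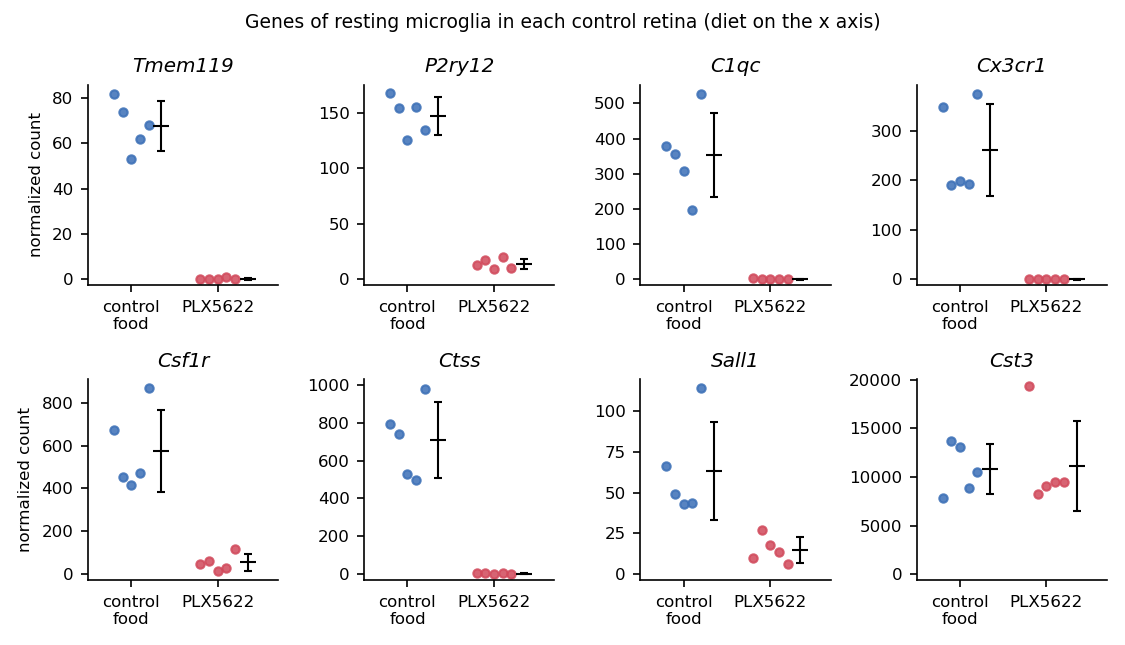
Normalized counts (y axes, linear) of 8 genes of resting microglia in each of the 5 control-food (blue) and 5 PLX5622 (red) control retinas. Points are mice in the order of their numbers and the bars are mean and SD. The PLX points sit at or near 0 for Tmem119, C1qc, Cx3cr1 and Ctss, at 9.53% of the control-food mean for P2ry12, at 23.4% for Sall1, and overlap the control-food points for Cst3.

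Of 51 myeloid receptors and signalling genes, 37 were lower, with a median log2 difference of -3.38 and a median of 6.91% left. Adgre1, an adhesion receptor of mature macrophages, and Fcgr3, a receptor for the constant part of IgG, had no read in any PLX mouse, from means of 55.26 and 72.45 normalized counts. They were at least 94.4-fold and at least 123.7-fold lower. Ly86 had 1.28% left (0.242% without PLX mouse 11) and Ptprc, the CD45 phosphatase of all leukocytes, had 1.30% (0.361% without PLX mouse 12).

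At the other end of the list, the B-cell and macrophage adaptor Pik3ap1 kept 48.9% (207.7, 187.6, 161.6, 154.1 and 198.6 against 81.32, 90.92, 104.7, 83.66 and 84.11 normalized counts; limma adjusted p = 0.00668). Nckap1l, the actin regulator of blood cells, kept 37.35%. Both were without overlap between the diets in spite of the smaller loss. Sirpa, the receptor for CD47 that neurons also carry, had 106.0% of the control-food mean (95% interval -0.17 to 0.37 on the log2 scale).

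**Figure D3:**
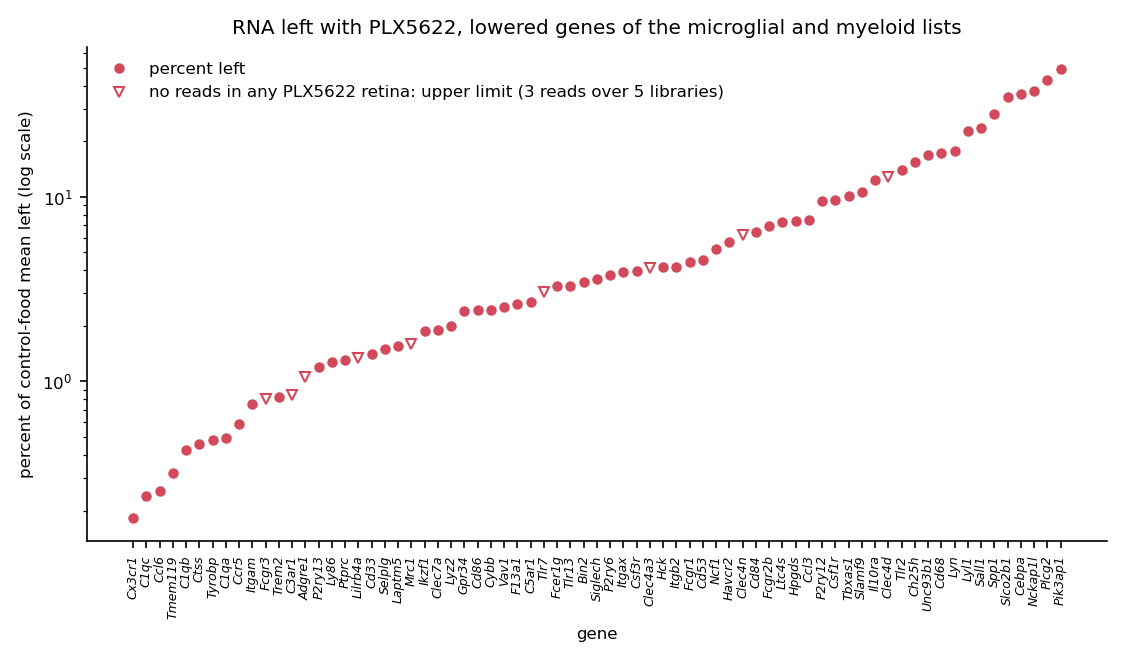
Percent of the control-food mean left with PLX5622 (y axis, log scale) for the called genes of the microglial and myeloid lists (x axis), sorted, with 1 gene not drawn. Open triangles are genes with no read in any PLX retina, drawn at the upper limit that 3 reads over the 5 libraries give, and the values run from 0.182% for Cx3cr1 to 48.9% for Pik3ap1.

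Of 18 transcription factors of myeloid cells, 3 were lower (median log2 difference -0.63): Ikzf1, a zinc finger factor of blood cells, with 1.87% left (3.44% without control-food mouse 5), Lyl1, a basic helix-loop-helix factor of blood precursors, with 22.65%, and Cebpa, a factor of the granulocyte and monocyte lineage, with 36.1%. The calls of Lyl1 and Cebpa ended without control-food mouse 1 or 5, and that of Cebpa also without PLX mouse 12 or 14 (adjusted p up to 0.0699 and 0.0606). The call of Cebpa also ended with the 10 control retinas fitted alone (0.0525). Spi1 had 98.11, 24.28, 43.33, 6.84 and 42.80 normalized counts against 0.984, 12.74, 0, 11.80 and 0. Its groups overlapped and it missed the threshold (11.85% left, limma adjusted p = 0.0591), while it was called without control-food mouse 4 or PLX mouse 12 or 14. The adjusted p was 0.24 without control-food mouse 1, 0.17 without mouse 5 and 0.284 with the 10 control retinas fitted alone, and 7.42% was left without PLX mouse 12.

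Of 30 genes that phagocytes raise around damage, 8 were lower and the median log2 difference was -0.42. The secreted phosphoprotein Spp1 had 1101, 1641, 2046, 471.3 and 1054 normalized counts with control food and 483.1, 331.8, 339.2, 230.6 and 396.1 with PLX5622. Control-food mouse 4 fell within the range of the PLX mice. Spp1 kept 28.2%, and its call (limma adjusted p = 0.0194) ended, with adjusted p up to 0.0791, without control-food mouse 1, 2 or 3 or PLX mouse 12, 13 or 14, and in the fit of the 10 control retinas alone (0.0571).

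Other members of this list fell to a few reads. Lyz2, the lysozyme of monocytes and macrophages, had 918.0, 282.2, 297.3, 154.0 and 1027 normalized counts with control food and 7.75 to 13.6 with PLX5622. The integrin Itgax kept 3.94%, all of it in PLX mouse 14, and the beta-glucan receptor Clec7a kept 1.89% (0.776% without that mouse). The inhibitory receptor Lilrb4a had no read with PLX5622 (at least 74.6-fold lower), and the chemokine Ccl6 had 1 (0.254% left, counting interval 0.00992% to 2.18%). Apoe, the lipid carrier that phagocytes raise and Müller glia make in bulk, had 87.75% (95% interval -0.66 to 0.19 on the log2 scale, limma adjusted p = 1.0).

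Of 19 markers of vessel-associated macrophages and infiltrating monocytes, 4 were lower, 15 were not called and 18 had a lower mean (median log2 difference -1.67). The mean log2 level of the list was 3.43 to 5.11 in the control-food mice and 1.54 to 2.14 in the PLX mice. Mrc1, the mannose receptor of perivascular macrophages, had 74.97, 19.59, 27.84, 25.22 and 36.94 normalized counts against 0 in every PLX mouse (at least 63.0-fold lower, limma adjusted p = 0.000728). F13a1, the coagulation factor XIII chain that such macrophages and monocytes carry, kept 2.64% (1.35% without PLX mouse 12), and the lectin receptors Clec4d and Clec4n were at 0 with PLX5622 (at least 7.84-fold and 16.2-fold lower). The call of Clec4n (limma adjusted p = 0.02) ended, with adjusted p up to 0.0637, without control-food mouse 1, 4 or 5 or PLX mouse 12, 13, 14 or 15, and with a pseudocount of 5 (0.0608).

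Ccr2, the chemokine receptor of inflammatory monocytes, had 245.8 and 189.0 normalized counts in control-food mice 1 and 5, but 4.63 to 15.1 in mice 2 to 4. The PLX mice had 2.52, 2.38, 0, 0 and 0. The groups did not overlap, and Ccr2 was not called (log2 difference -4.28, limma adjusted p = 0.124). The difference was -3.54 without mouse 1 and -3.64 without mouse 5 (adjusted p = 0.458 and 0.415), and 0.0497 was the adjusted p without control-food mouse 4, the single alternative in which it was called. How much of the fall of a shared myeloid gene belongs to microglia, to vessel-associated macrophages or to monocytes was not tested.

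Mice 1 and 5 also led the MHC class II genes, which present antigen to T cells. Cd74, their invariant chain, had 505.2, 85.66, 123.6, 60.63 and 1030 normalized counts against 4.21, 3.76, 2.67, 0 and 0.739 (0.63% left and 1.17% without mouse 5, limma adjusted p = 0.000514, and 0.00356 and 0.00273 without mouse 1 or 5), and the chain H2-Aa had 2.40% left (4.30% without mouse 5 and 1.49% without PLX mouse 14; limma adjusted p = 0.0268). All 7 class II genes tested were lower at an unadjusted p under 0.05, of which these 2 were called, and the median log2 difference was -2.92. The call of H2-Aa ended without control-food mouse 1 or 5 or PLX mouse 11, 12, 13 or 15 (adjusted p up to 0.124). Class I genes, which nearly all cells carry, had a median of -0.51, with all 14 means lower and none called in limma (2 at an unadjusted p under 0.05).

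Inflammatory cytokines and inflammasome genes had a median log2 difference of -1.76, and 4 of 19 were called. The alarm cytokine Il1a had 31.44, 2.52, 9.80, 3.39 and 9.44 normalized counts with control food and the monocyte-attracting chemokine Ccl12 had 12.55, 14.97, 38.17, 11.04 and 12.76. Neither had a read in any PLX mouse (at least 19.3-fold and 30.6-fold lower). The bound for Il1a rests on control-food mouse 1 and was 10.7-fold without it, with a log2 difference of -2.69 in place of -3.16. The inflammasome sensor Nlrp3 kept 13.4% (7.42% without PLX mouse 13), and the interleukin-1 receptor antagonist Il1rn was at 0 with PLX5622, from values of 0.658 to 42.8. The calls of the last pair (limma adjusted p = 0.0137 and 0.0319) both ended without control-food mouse 1 or 5 or PLX mouse 11 or 12, and that of Il1rn also without control-food mouse 3 or PLX mouse 13, 14 or 15 (adjusted p up to 0.0623 and 0.138). Both also ended with the 10 control retinas fitted alone (0.123 and 0.0916), and that of Il1rn with a pseudocount of 5 (0.156).

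Interferon-stimulated genes had a median log2 difference of -0.61, with 29 of 30 means lower and 1 call, the mitochondrial protein gene Ifi27l2a (5.94% left, 2.85% without PLX mouse 11, limma adjusted p = 0.023). That call ended, with adjusted p up to 0.0937, without control-food mouse 1, 2 or 5 or PLX mouse 12, 13, 14 or 15. None of 15 complement genes outside C1q was called, with 4 lower at an unadjusted p under 0.05. Among them the alternative pathway factor Cfb had no read in any PLX mouse and 2.68 to 36.3 normalized counts with control food (limma adjusted p = 0.101, 0.0265 with the 10 control retinas fitted alone, where it was called, and 0.359 without control-food mouse 5), and the membrane inhibitor Cd59a, which retinal cells carry, had 1007 to 1339 against 780.0 to 914.9 without overlap (log2 difference -0.42, limma adjusted p = 0.21).

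No ligand that addresses microglia was called. Csf1 and Il34, the ligands of the CSF1 receptor, had 77.0% and 78.4% of the control-food mean with overlapping groups (95% intervals of the log2 difference -0.96 to 0.25 and -0.80 to 0.29). Cx3cl1, the neuronal ligand of Cx3cr1, had 2292 ± 271.7 normalized counts with control food and 2346 ± 424.8 with PLX5622 (SD, n = 5; interval -0.29 to 0.34). Of 12 genes on this list 1 was called, the shared beta chain of cytokine receptors Csf2rb, which myeloid cells themselves carry. It had 175.9, 5.84, 17.80, 91.99 and 94.59 against 0.608, 1.699, 10.77, 2.55 and 0 normalized counts, so the groups overlapped (limma adjusted p = 0.0369). The call ended, with adjusted p up to 0.166, without control-food mouse 1, 4 or 5 or PLX mouse 11, 12, 14 or 15, in the fit of the 10 control retinas alone (0.12), with a pseudocount of 5 (0.056) and with a minimum mean of 10 or none. Tgfb1, which microglia both make and depend on, had 41.2% left (limma adjusted p = 0.107). It was called without PLX mouse 11 and with the transcript length score. Its limma adjusted p was 0.266 without control-food mouse 1, 0.392 without mouse 5 and 0.335 with the 10 control retinas fitted alone.

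Neurons showed no called gene. Of 130 genes of rods, cones, bipolar, amacrine, horizontal and ganglion cells, synapses, injury and immediate early response, none was called in limma, 1 was lower and 2 were higher at an unadjusted p under 0.05, and the median log2 difference was 0.076. For 122 of them the 95% interval lay within 1 log2 unit of 0, so a change of 1 log2 unit in those genes lay outside the interval. Gnat1, the transducin subunit that carries the light signal in rods, had 198500, 301100, 241600, 264500 and 229600 normalized counts with control food and 289200, 272600, 233200, 280800 and 259300 with PLX5622. The ranges overlapped (log2 difference 0.12, interval -0.17 to 0.41). The short-wavelength cone opsin Opn1sw differed by 0.18 (interval -0.11 to 0.47).

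Genes of the inner retina, where microglial processes lie, also overlapped between the diets. Prkca, the kinase that marks rod bipolar cells, had 6404 ± 1712 and 8242 ± 2158 normalized counts (SD, n = 5; difference 0.36, interval -0.08 to 0.79, limma adjusted p = 0.991). Gad1, the enzyme that makes GABA in amacrine cells, differed by -0.07 (interval -0.33 to 0.20). The ganglion cell factor Pou4f1 and the neurofilament Nefl of their axons differed by 0.16 (interval -0.11 to 0.43) and 0.12 (-0.11 to 0.36). Among the 21 synapse genes the median was 0.11 and all 21 intervals lay within 1 log2 unit. The 13 injury genes had a median of -0.05 and 9 such intervals, so they were measured less closely. The mean was higher with PLX5622 in 19 of 21 synapse, 16 of 20 rod, 13 of 16 ganglion cell and 10 of 14 cone genes. It was higher in 9 of 14 bipolar, 9 of 14 amacrine, 3 of 5 horizontal, 7 of 13 immediate early and 4 of 13 injury genes. Over all genes tested 48.9% had a lower mean.

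**Figure D4:**
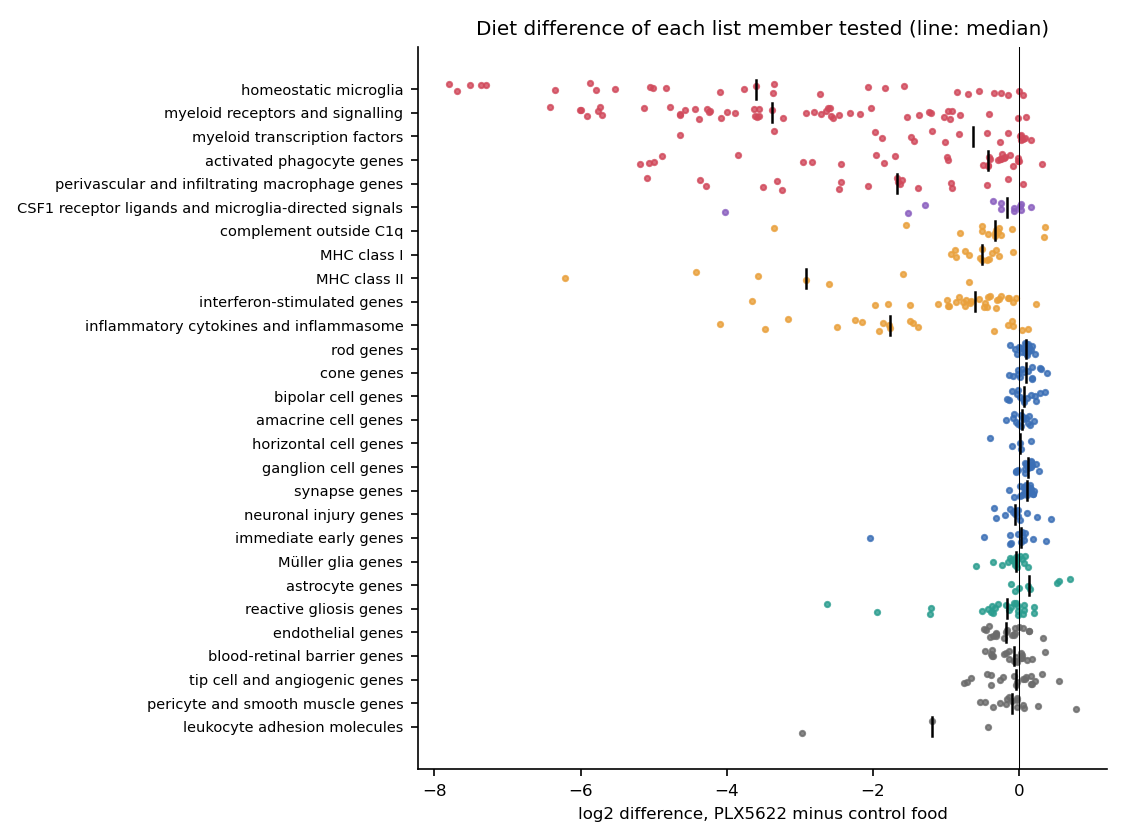
Log2 difference between PLX5622 and control food (x axis) of every tested member of the myeloid, immune, signal, neuron, glia and vessel lists (y axis), with the list median as a vertical line. The median was -3.59 for resting microglia and -3.38 for myeloid receptors, and all neuron lists had medians between -0.049 and 0.127.

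Glia gave 1 called gene among 51, with 5 lower and 1 higher at an unadjusted p under 0.05. The 5 were all among the 24 reactive gliosis genes, of which 19 had a lower mean (median log2 difference -0.16). Over the 51 the median log2 difference was -0.06, and 36 intervals lay within 1 log2 unit of 0. Glul, the glutamine synthetase of Müller glia that recycles glutamate, had 41310 ± 8813 and 41810 ± 8224 normalized counts (SD, n = 5; interval -0.29 to 0.33), and Rlbp1, the retinaldehyde-binding protein of Müller glia and pigment epithelium, differed by 0.08 (interval -0.28 to 0.44). Gfap, the intermediate filament that astrocytes hold and Müller glia raise on injury, had 1276, 2150, 2074, 695.3 and 1513 against 3089, 2056, 2779, 1570 and 1428 normalized counts. The 2 highest values, in mice 11 and 13, were from PLX5622, but the groups overlapped (141.7% of the control-food mean, log2 difference 0.54, interval -0.07 to 1.15, limma adjusted p = 0.955). Without mouse 11 the difference was 0.40 (adjusted p = 0.699).

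The called gene was Lcn2, a secreted iron-siderophore carrier that reactive glia raise and neutrophils store. It had 878.7, 349.3, 790.0, 603.8 and 940.1 normalized counts with control food and 576.1, 42.83, 120.7, 57.22 and 86.16 with PLX5622. Of the PLX mice, 4 lay below all control-food mice, and mouse 11, the library with the high short genes, lay between them. With all 10 mice 24.8% was left (log2 difference -2.62 ± 0.62 SE, limma adjusted p = 0.0486). Without mouse 11 it was 10.8% (adjusted p = 0.00195), whereas the call ended, with adjusted p up to 0.177, without control-food mouse 1, 3, 4 or 5 or PLX mouse 12, 13, 14 or 15. With the 10 control retinas fitted alone the adjusted p was 0.113, and Steap4, not Lcn2, was then the called glial gene. In the Tgfbr2ΔEC retinas Lcn2 had means of 334.4 and 93.78 (limma adjusted p = 1.0). The neutrophil list, 4 of whose 10 genes reached the tested level, had mean log2 levels of 1.2 to 4.62 with control food and 0.24 to 2.15 with PLX5622, with no call (none at an unadjusted p under 0.05), and their part in Lcn2 was not tested.

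A further pair of gliosis genes was not called. Steap4, a metal reductase raised in inflamed glia, had 160.5, 54.36, 109.9, 51.78 and 174.6 against 31.88, 16.96, 27.07, 26.03 and 23.78 normalized counts. The groups did not overlap (22.8% left, limma adjusted p = 0.0733), and it was called without control-food mouse 4, with the 10 control retinas fitted alone (adjusted p = 0.0433) and with a lens crystallin score as covariate (0.00749). Its adjusted p was 0.272 without control-food mouse 1 and 0.269 without mouse 5. The chitinase-like protein Chi3l1 had 48.3% left with PLX mouse 11 again the only high PLX value at 1285 (277.4 to 441.0 in the others). Its limma adjusted p was 0.242 with all mice and 0.00996 without mouse 11. It was 0.605 without control-food mouse 1, 0.577 without mouse 5 and 0.457 with the 10 control retinas fitted alone.

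Vessels gave no called gene among 78 in limma (7 lower and none higher at an unadjusted p under 0.05). The median log2 difference was -0.09, and 59 intervals lay within 1 log2 unit of 0. The VEGF receptor Kdr had 3753 ± 324.3 and 3650 ± 661.1 normalized counts (SD, n = 5; interval -0.37 to 0.26), the tight junction protein Cldn5 differed by -0.37 (interval -0.93 to 0.18) and the pericyte receptor Pdgfrb by -0.14 (interval -0.37 to 0.10). Tek, the angiopoietin receptor, was lower in every PLX mouse, at 164.3 to 271.6 against 125.8 to 158.6, with 70.75% left (log2 difference -0.48, interval -0.80 to -0.16, limma adjusted p = 0.341).

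The 3 leukocyte adhesion molecules tested were each lower at an unadjusted p under 0.05, and none was called. Icam1, which binds leukocyte integrins, had 27.33 to 64.52 normalized counts against 10.11 to 26.10 without overlap (43.0% left, limma adjusted p = 0.42). Vcam1 had 73.55% left (limma adjusted p = 0.711). P-selectin, Selp, which starts leukocyte rolling, was at 0 in all 5 PLX mice and in control-food mouse 3, and at 0.991 to 50.5 in the others (limma adjusted p = 0.181, and 0.0166 without mouse 3). The adjusted p of Selp was 0.464 without control-food mouse 1, 0.495 without mouse 5 and 0.509 with the 10 control retinas fitted alone. Over neurons, glia and vessels together, 1 of 259 genes was called (median 0.005), beside 72 of 147 in the myeloid lists (median -2.17). Without control-food mouse 1 or 5 or PLX mouse 12, 13, 14 or 15 that count was 0, and without PLX mouse 11 it was 2 (Lcn2 and Chi3l1). The 1 gene called was Steap4 without control-food mouse 4 and Selp without control-food mouse 3.

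Other lists held no called gene: cell cycle, cholesterol, thyroid hormone, clock, growth factor, pigment epithelium, lens, red cell, stroma, lymphocyte, dendritic and mast cell genes. The proliferation marker Mki67 had 138.0, 14.22, 26.96, 9.93 and 66.62 normalized counts against 0, 1.76, 98.34, 3.98 and 1.52. All PLX mice but mouse 13 lay below the control-food mice (limma adjusted p = 0.514, 0.0172 without mouse 13 and 0.947 without control-food mouse 1). Of the 15 cell cycle genes, 14 had a lower mean and 4 were lower at an unadjusted p under 0.05 (median log2 difference -0.52). Dio2, the enzyme that activates thyroid hormone, had 160.2% of the control-food mean with overlapping groups (log2 difference 0.57, limma adjusted p = 0.819). The lens crystallins, whose RNA marks lens carried along in dissection, varied as widely within the diets as between them, with mean log2 levels of 2.07 to 10.01 and 2.84 to 10.19.

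Of the 169 lowered genes, 88 belonged to none of the lists. The following were chosen after their values had been seen. Mpeg1, the pore-forming perforin-2 of macrophages, had 260.8 to 783.0 normalized counts with control food and 1.89 to 3.96 with PLX5622 (0.572% left, limma adjusted p = 9.06e-08). Ighm, annotated as the constant part of the immunoglobulin mu heavy chain, had 46.80 ± 17.25 against 0.785 ± 0.735 (SD, n = 5). The signalling kinase Btk had no read in any PLX mouse (at least 18.5-fold lower, from 6.18 to 18.1 normalized counts), and the Toll-like receptor homologue Cd180 had 2 reads (0.652% left, counting interval 0.0918% to 2.74%). The endolysosomal exonuclease Pld4 kept 4.9%. The groups of these 3 genes did not overlap. The actin-bundling protein Lcp1 of leukocytes kept 20.8% and the IgG receptor Fcgr4 had 1 read (1.06% left, counting interval 0.027% to 5.94%). The calls of both (limma adjusted p = 0.0237 and 0.00548) ended with the 10 control retinas fitted alone (0.124 and 0.0526), and that of Lcp1 also without control-food mouse 1, 2 or 5 or PLX mouse 11, 12 or 13 (up to 0.103). Selenop was at the mild end, with 646.3, 642.1, 566.5, 570.5 and 1160 against 396.2, 364.4, 354.3, 355.9 and 357.4 normalized counts. The PLX mice lay in a narrow band below all control-food mice (log2 difference -0.91 ± 0.21 SE, limma adjusted p = 0.0386). The call ended, with adjusted p up to 0.129, without control-food mouse 1, 2 or 5 or without any 1 of the PLX mice, in the fit of the 10 control retinas alone (0.0558), with the sex score as covariate (0.0522) and with a minimum mean of 10 or none.

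The higher genes were few and weakly determined. Atg16l2, a relative of the autophagy factor ATG16L1, had 285.4, 258.6, 319.7, 245.8 and 217.9 normalized counts with control food and 520.5, 449.5, 462.8, 358.3 and 382.8 with PLX5622. Every PLX mouse was above every control-food mouse, as for 71 of all genes tested (0.305%), and the mean was 163.8% (log2 difference 0.71 ± 0.17 SE, limma adjusted p = 0.0471). In the Tgfbr2ΔEC retinas it had means of 299.0 ± 62.46 and 304.5 ± 64.47 (SD, n = 5), and the difference between the genotypes was 0.68 (interval 0.19 to 1.17, unadjusted p = 0.00844, adjusted p = 1.0). The predicted gene Gm42830 was at 0 in all control-food mice and at 8.774, 3.996, 0.933, 4.43 and 1.73 normalized counts with PLX5622, about 20 reads over the 5 libraries (limma adjusted p = 0.0463).

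Both calls were lost with a pseudocount of 5, with the 10 control retinas fitted alone (adjusted p = 0.0741 and 0.102), with the lens crystallin score (0.0546 for each) and when 1 of several mice was left out. Under the fit of the 10 and under the lens score the single higher gene was another, Fam219b and Aspg respectively, which were named after these values were seen. For Atg16l2 these were control-food mice 1, 2, 4 and 5 and PLX mice 11, 12, 13 and 15 (adjusted p up to 0.178), and for Gm42830 they were all control-food mice and PLX mice 11, 12, 14 and 15 (up to 0.148). The call of Atg16l2 was also lost with a minimum mean of 10 or none and with either rescaling. That of Gm42830 was also lost with the sex score (limma adjusted p = 0.0598). The number of higher genes was 0 without control-food mouse 1 or 5 or PLX mouse 12 or 15, and 1 without control-food mouse 4 or PLX mouse 11. The next in order of p were the predicted gene Gm15802, at 18 reads in the PLX group (limma adjusted p = 0.0569), and Adcy5, an adenylyl cyclase. Gm15802 was called without PLX mouse 14 and with no minimum mean. Adcy5 had 1206 to 1422 against 1463 to 2394 normalized counts without overlap (log2 difference 0.49, limma adjusted p = 0.0741), with mouse 11 the lowest PLX value. It was called without that mouse and with the transcript length score. With another mouse left out the adjusted p of Gm15802 and Adcy5 reached 0.202 and 0.257. With the 10 control retinas fitted alone it was 0.173 and 0.239.

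**Figure D5:**
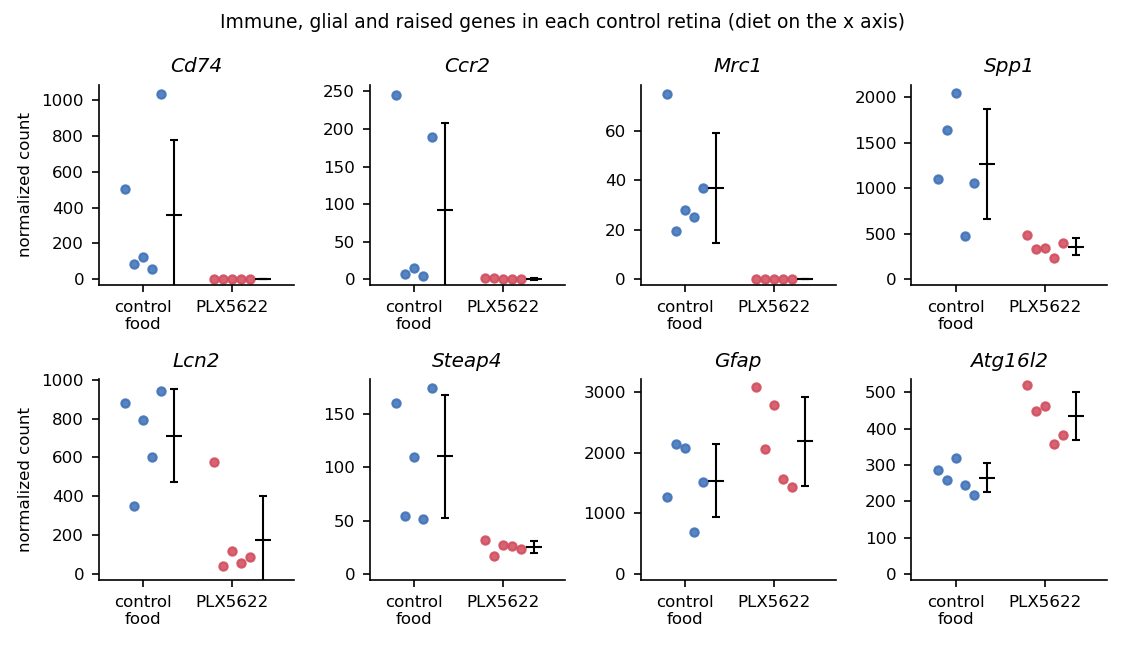
Normalized counts (y axes, linear) of 8 immune, glial and raised genes in each of the 5 control-food (blue) and 5 PLX5622 (red) control retinas, with mean and SD; parts of an SD below 0 are cut off. Cd74 and Ccr2 are high in 2 control-food mice, Lcn2 is high in 1 PLX mouse at 576.1, and Gfap overlaps between the diets.

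The same comparison was made in 10 Tgfbr2ΔEC mice, 5 on each diet, and their retinas share no library with the control retinas. Both comparisons came from one fit of the 4 retina groups. They share its estimate of each gene's spread, so their calls are not fully independent. In Tgfbr2ΔEC retina PLX5622 lowered 119 genes (0.512%) and raised 1 (0.0043%). Of the 169 genes lowered in control retina, 106 (62.7%) were also called lower in Tgfbr2ΔEC retina and 168 had a lower mean, as 50.5% of all genes tested did. Of the 119, 89.1% were among the 169. Resting microglia had a median log2 difference of -2.99 and 17 calls, and Tmem119, C1qc and Cx3cr1 kept 0.333%, 0.15% and 0.401%. The lists of perivascular and infiltrating macrophages, MHC class II and interferon-stimulated genes, with 4, 2 and 1 calls in control retina, had 0 there in limma, and cytokines had 2 (Il1a and Ccl12). Spi1, uncalled in control retina, was called there (means of 48.77 and 1.26 normalized counts, limma adjusted p = 0.00192).

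The diet effect was not shown to differ between the genotypes for any gene. Of 23243 genes tested, the interaction had none at an adjusted p of 0.05 in limma and 567 at an unadjusted p under 0.05. Of these, 16 were among the 169, a larger share than over all genes. The 169 were chosen by their fall in control retina, which favours a larger fall there. Of them, 31 fell less in control than in Tgfbr2ΔEC retina. The lowest adjusted p of the interaction among the 169 was 0.687. The perivascular macrophage genes gave values to set side by side. Mrc1 had 36.91 ± 22.18 normalized counts in control retina and 16.96 ± 17.33 in Tgfbr2ΔEC retina on control food (SD, n = 5), and 0 and 1.26 ± 1.74 with PLX5622. Its log2 difference was -5.08 and -2.28 (interaction -2.80, interval -5.14 to -0.47, unadjusted p = 0.0211, adjusted p = 1.0).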

How the data were processed

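Polyadenylated RNA of whole retina was sequenced as single reads from stranded libraries. Per the submitters' processing notes and the study's methods, the authors estimated reads per gene by Salmon 1.10.1 (GRCm39) and tximport, then scaled them in DESeq2 1.36.0. The deposited signal is called normalized counts here. From the steps between low values, 45.7 to 68.5% of the low values of a control retina lay within 0.1 of a whole read. This is short of nearly all, so no table of reads was recovered and no count model was run. Depths and the numbers of reads in the text are estimates from these steps, rounded, and intervals and bounds based on them are approximate.

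Groups came from the sample titles. Differences were tested with limma 3.58.1 under R 4.3.3, its variance prior following the mean, after adding a pseudocount of 1 and taking log2. Of 54307 genes, the 23243 whose mean reached 1 across 20 retinas were tested. The 4 retina groups entered one fit without covariates, Benjamini-Hochberg adjusted p-values at or under 0.05 were called, and this scale understates changes of low genes. Single genes were compared by two-sided exact permutation tests of 5 mice against 5. The procedure was tested on simulated data. Gene positions and types came from a GRCm39 annotation that matched 53700 genes.

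The members and the 42 gene lists were chosen with earlier results of these data known. Of 646 list genes 644 were matched (Fcrls and C5 were not), and for Ddit3, which has more than 1 identifier, the one with the higher mean was used. The genes named are Tmem119, P2ry12 and C1qc, the 10 with the lowest p in each direction, called members of lists outside the myeloid class, and from each list up to 6 members with the highest mean, up to 4 with the lowest p and those with the highest and lowest percent left. Csf1r, Sall1, Trem2, Ptprc, Nckap1l, Itgax, Spp1, Csf1, Il34, Btk, Cd180, Pld4, Lcp1, Fcgr4, Mpeg1, Ighm, Selenop and Med12l fall outside this rule and were chosen after their values were seen. The authors' sex covariate was not in the labels used here, and a score of sex-linked genes replaced it in an alternative. Other alternatives were pseudocounts of 0.5 and 5, a minimum mean of 10 or none, other scalings, a fit of the 10 control retinas alone, a robust variance, scores of lens crystallins and of transcript length, and leaving out each mouse in turn. A pair of genes that the rule names is not reported here singly.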

Additional observations from a re-analysis of the deposited data

Results flagged for a closer look

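In groups of 5 mice, the highest or lowest value was compared with its nearest neighbour, and a gap above 0.71 of the group's range was taken as a value far from the others. Of 168 groups of 5 values (the genes named, on each diet), 11 held such a value, and chance alone gives about 1 in 20 groups.

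Among the microglial genes, PLX mouse 14 was the only PLX mouse with reads of Tmem119 (1.07 normalized counts), of Itgax (4.2) and of Ccl6 (0.633), and PLX mouse 15 was the only one with reads of Ikzf1 (4.54). PLX mouse 11 was the only PLX mouse with a read of Fcgr4 (0.968). Control-food mouse 3 had the highest Ccl12 at 38.2. Selenop was highest in control-food mouse 5 at 1160 and, among the PLX mice, in mouse 11 at 396. Cst3 was highest in PLX mouse 11 at 19400. Cx3cl1 was highest in control-food mouse 2 at 2770, and control-food mouse 5 was the only mouse on that food with a read of Gm15802 (0.746).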

How the results depend on the processing

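The number of lower genes was 169 and ranged from 125 (without mouse 1) to 197 (without mouse 4), and it was 104 with a minimum mean of 10, which leaves fewer genes. The number of higher genes, 2, became 0 with a pseudocount of 5 or a minimum mean of 10, 5 with no minimum, and 1 with either rescaling, with the 10 control retinas alone, with the sex score and with the lens score. It became 11 with the transcript length score, and ranged from 0 to 3 when a mouse was left out. The lens and length scores were chosen after seeing the data. The neuron, glia and vessel genes called, 1, became 0 with a pseudocount of 5, a minimum mean of 10, no minimum, the sex score or a robust variance, 2 with the lens score, and ranged from 0 to 2 when a mouse was left out. The myeloid genes called ranged from 60 to 78, the interaction stayed at 0, and the median percent left of the resting microglia list, 7.30%, ranged from 4.5% (without mouse 14) to 8.06% (without mouse 11). Of 50 called genes named, 34 kept their call in all 21 alternatives that could be computed and 16 lost it in some; of 34 uncalled, 10 passed the threshold in some. Signs turned only for uncalled genes near 0. Cst3 became 0.02 with the length score, and Cx3cl1 and Glul became -0.02 at equal totals. With a mouse left out, Cst3 ranged from -0.23 to 0.09, Cx3cl1 from -0.07 to 0.1, Glul from -0.08 to 0.11, Gad1 from -0.14 to 0.04, Rlbp1 from -0.09 to 0.23 and Kdr from -0.15 to 0.01. The causes were not tested. A lone read weighs heavily in genes at the floor, and percent left below about 1% rests on few reads. No paired analysis was possible because the control-food and PLX mice share no replicate numbers.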
